A study of Mus musculus with 2 samples.

Results

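Emcn, Pecam1, Cdh5, Kdr, Flt1, Tek, Tie1, Esam, Egfl7 and Cd93 are 10 genes widely used to mark the endothelial cells that line blood vessels. They were read on 2 one-colour Agilent arrays of peeled mouse epidermis, 1 array per genotype. Every non-control probe whose RefSeq accession maps to one of these genes was taken, which gave 13 probes and 31 spots, and the 10 genes are among 18206 that could be named on the array. The knockout array held RNA of Nfkbiz flox/flox mice carrying K5-cre, a recombinase under the keratin 5 promoter, which is active in basal keratinocytes. The control array held RNA of Nfkbiz flox/flox mice without the transgene, so both groups carry the floxed Nfkbiz alleles. Nfkbiz encodes IκBζ, a nuclear protein that modulates NF-κB target genes. Both samples are labelled as steady state, and the epidermis was lifted from the dermis with forceps after ammonium thiocyanate. The keratin 5 promoter is not an endothelial promoter, and the age, strain and number of mice behind each RNA are not given in the sources used here. With 1 array per genotype no difference has a replicate check, no p-value was computed, and the number of arrays limits the precision.

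Endothelial cells respond to vascular endothelial growth factors through the receptor kinases encoded by Kdr and Flt1, and to angiopoietins through TIE2, encoded by Tek, with its partner TIE1. They hold to each other through VE-cadherin (Cdh5), PECAM-1 and ESAM. The epidermis itself has no blood vessels and is supplied from the dermis beneath it, while keratinocytes are known as a source of VEGF-A for those vessels.

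The tissue label was checked first. All 8 keratinocyte genes (Krt5, Krt14, Krt1, Krt10, Krt15, Trp63, Dsp and Lor) were measured on both arrays, with log2 differences between -0.31 and -0.070. Differences are knockout minus control on a log2 scale, after each array was divided by the 75th percentile of its signals (239 on the knockout array and 205 on the control array). Nfkbiz had a signal of 1760 on the knockout array, against 3100 on the control array, a log2 difference of -1.04 ± 0.20. The ± values are standard errors from the scanner software's error model, so they reflect measurement noise and leave out how mice vary. Where the Nfkbiz probe lies relative to the deleted part was not known here, so its value checks the labels only in part. Over all genes measured on both arrays the median difference was -0.040, and 40.7% of the genes at least 2-fold apart were higher on the knockout array. With each array scaled by its median instead, every gene moves up by 0.35 and that share becomes 78.5%. Nfkbiz was then at -0.69, short of 2-fold. Under the other normalizations and the background correction used below it lay between -1.02 and -0.97.

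The endothelial markers lay at or near the detection limit of the arrays. A gene counted as measured on an array when its probe was marked well above background there. The lowest such signal was 12.1 on the knockout array and 12.7 on the control array. By this rule Egfl7 and Flt1 were measured on both arrays. Tek and Esam were measured on the knockout array alone, as were 3.16% of all named genes, and Emcn and Cd93 on the control array alone, as were 2.58%. Pecam1, Cdh5, Kdr and Tie1 were measured on neither. Thus 2 of the 10 genes were measured on both arrays, where 68.1% of all named genes were, and 4 of the 10 on neither, where 25.9% of all named genes were. Of the 13 probes, 4 were well above background on the knockout array and 4 on the control array, beside 56.3% and 56.2% of all probes. Signals no larger than 1.1 times their own error were found for 6 of the 13 probes on the knockout array and for 3 on the control array.

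**Figure D1:**
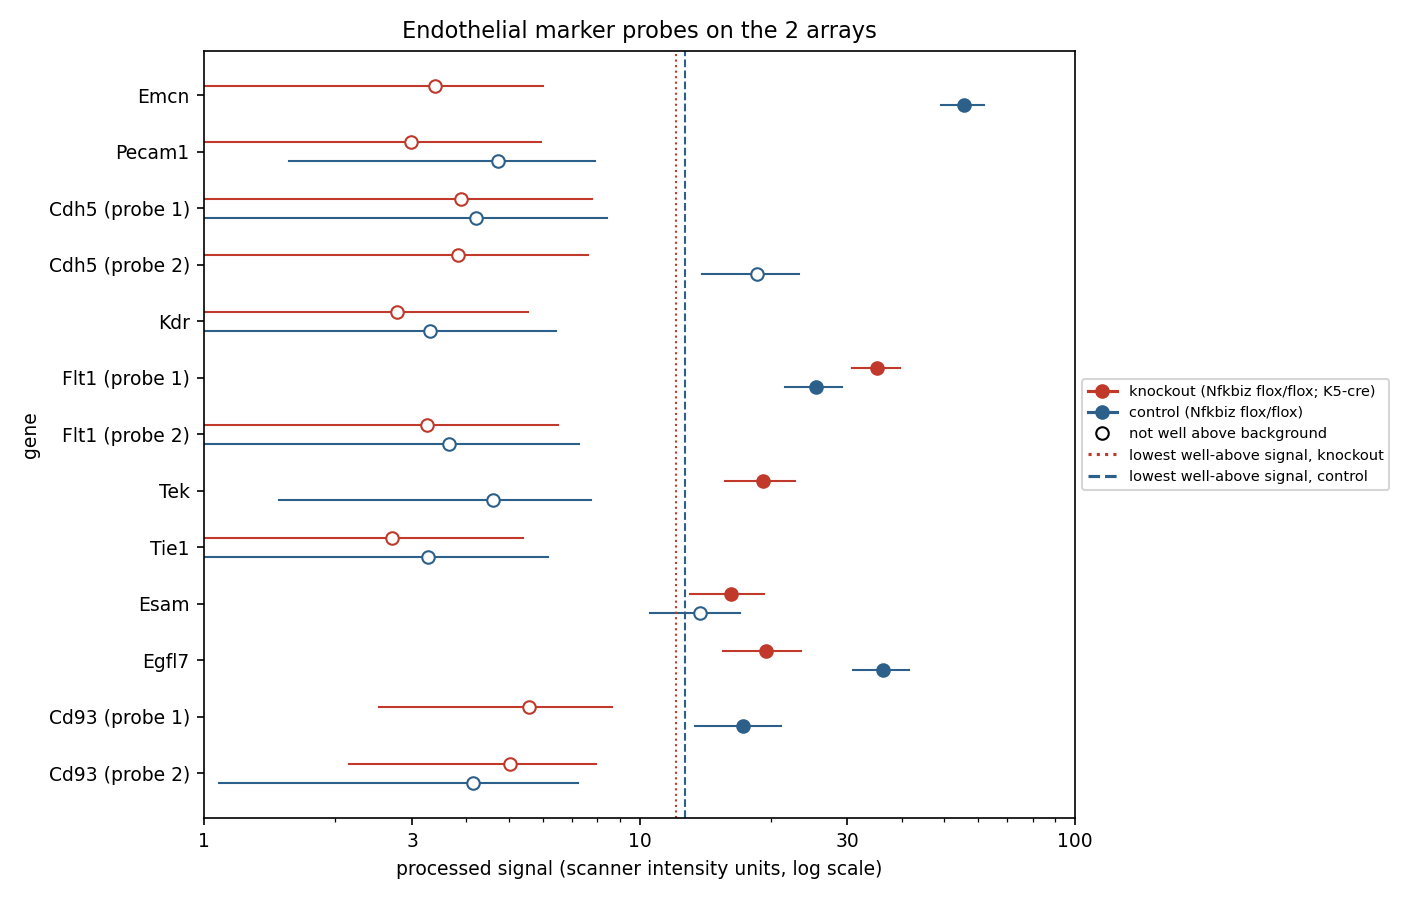
Processed signal (log axis) of each of the 13 probes, with knockout above control and bars for the scanner software's error, drawn only from a signal of 1 upward. Filled points are well above background, and the dotted and dashed lines mark the lowest such signal on each array (12.1 and 12.7). Most points lie left of these lines, and Emcn has the widest gap, with 3.38 on the knockout array and 55.6 on the control array.

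Among the 6 genes measured on at least 1 array, Emcn and Egfl7 (2 genes) were lower in the knockout sample by 2-fold or more and 0 were higher by that much. Of all named genes measured on at least 1 array, 5.38% were lower and 3.5% higher by that much, bounds included. A bound is used where a gene was measured on 1 array alone. It divides the bright signal by whichever is larger on the dim array, the probe's own signal or the lowest signal called there. The true ratio may be larger, or smaller, because measurement error is left out. Some signals above the lowest called one were not called either, such as Cdh5 at 18.6 on the control array. For genes measured on 1 array alone, 'at least' refers to this bound. Over Egfl7 and Flt1, the only members measured on both arrays, the median difference was -0.43. That median rests on 2 genes with opposite signs, of which 1 was past 2-fold, where 4.4% of all named genes measured on both arrays were lower and 3.03% higher by that much. In a bulk sample fewer endothelial cells and less RNA per cell cannot be told apart.

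The upstream sequences of the 4 members that had a measured signal and an entry in RefSeq's promoter table (build GRCm38.p6) are shown because these genes went different ways on the arrays, Emcn and Egfl7 being lower and Flt1 and Tek not lower on the knockout array. Each is the 250 bases before the transcript start that the table lists, 5′ to 3′ on the gene's strand, with capitals marking GGAA or its reverse complement TTCC, the core bound by ETS factors, a family that includes the endothelial regulators ERG and FLI1. The regions are chr3:137340828-137341077 (plus strand) for Emcn, chr2:26580833-26581082 (plus) for the outermost of 3 listed starts of Egfl7, chr5:147726012-147726261 (minus) for Flt1 and chr4:94739039-94739288 (plus) for Tek. The listed start can differ from the outer end of the gene as annotated in RefSeq. The Flt1 window lies wholly inside the annotated gene, and the Emcn and Tek windows overlap it in part.
Emcn: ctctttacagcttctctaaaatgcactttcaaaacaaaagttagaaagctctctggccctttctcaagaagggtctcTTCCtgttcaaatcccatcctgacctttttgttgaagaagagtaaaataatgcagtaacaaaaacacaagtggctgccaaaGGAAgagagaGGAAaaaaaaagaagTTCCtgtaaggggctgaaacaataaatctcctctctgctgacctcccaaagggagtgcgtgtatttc
Egfl7: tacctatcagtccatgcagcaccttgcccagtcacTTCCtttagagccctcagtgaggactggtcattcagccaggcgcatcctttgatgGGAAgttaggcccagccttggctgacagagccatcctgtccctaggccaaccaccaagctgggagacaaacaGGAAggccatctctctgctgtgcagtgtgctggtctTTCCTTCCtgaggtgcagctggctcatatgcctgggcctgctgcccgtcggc
Flt1: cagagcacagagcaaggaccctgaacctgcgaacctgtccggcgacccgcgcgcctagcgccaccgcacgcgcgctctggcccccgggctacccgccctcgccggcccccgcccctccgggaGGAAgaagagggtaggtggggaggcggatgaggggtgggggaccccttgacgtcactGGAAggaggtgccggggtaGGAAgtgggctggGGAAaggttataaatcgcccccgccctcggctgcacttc
Tek: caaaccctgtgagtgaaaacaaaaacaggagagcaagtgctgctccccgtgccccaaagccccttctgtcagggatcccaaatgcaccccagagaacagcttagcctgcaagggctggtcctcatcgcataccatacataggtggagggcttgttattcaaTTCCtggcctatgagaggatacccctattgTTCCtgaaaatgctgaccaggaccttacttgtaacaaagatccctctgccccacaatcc
The core occurred 4 times before Emcn, 5 times before the outermost start of Egfl7, 4 times before Flt1 and 2 times before Tek, counting both strands and any overlap. The other listed starts of Egfl7, not shown, had 3 and 1 matches. Of 32851 mouse promoters of the same length, 93.4% hold it at least once and the median is 3. The longer form CCGGAA, which 12.03% of all promoters hold, was found before Kdr alone among the 6 members with an entry (Kdr, Tie1 and the 4 above). A match describes the letters of the window and says nothing of binding.

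Emcn encodes endomucin, a sialomucin of the endothelial surface found mainly on capillaries and veins (gene 59308, chromosome 3). Its single probe had a signal of 3.38 ± 2.63 on the knockout array, against 55.6 ± 6.27 on the control array, where ± is the error of one spot. The knockout signal was barely above its own error, and the control signal was 8.87 times its error. Emcn was therefore at least 5.36-fold lower on the knockout array, the largest bound among the 10 genes. Under the normexp background correction the bound shrank to -1.09 on the log2 scale. That correction adds an offset of 50 to every signal. Ratios of signals near or below 50 are thereby drawn toward 1, so a smaller value under it is partly built in. Named probes well above background on the control array with signals of 40 to 80 there, around that of Emcn, numbered 2374. Of these, 2.61% were not well above background on the knockout array and 8.8% were lower by 2-fold or more. The 47 neighbouring spots within 3 rows and 3 columns, a check chosen after the values were seen, had a median difference of -0.0042 over the 23 measured on both arrays, and 1 of all 47 was at least 4-fold lower by signal.

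Egfl7 encodes a small secreted protein with EGF-like repeats that endothelial cells deposit in the matrix (gene 353156, chromosome 2). It had a signal of 19.5 ± 3.97 on the knockout array, against 36.2 ± 5.32 on the control array. The log2 difference was -1.11 ± 0.36, or 2.16-fold lower, just past the 2-fold line. Relative to the median of all genes it was -1.07. It fell short of 2-fold with median scaling (-0.76), quantile normalization (-0.84), cyclic loess (-0.87) and the normexp background correction (-0.35). Of 2625 named probes well above background on the control array with signals of 25 to 50 there, 9.26% were at least 2-fold lower by signal. Its 47 neighbouring spots had a median difference of -0.059 over the 18 measured on both arrays, and 3 of all 47 were at least 4-fold lower by signal.

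An intron of Egfl7 is known to carry miR-126, a microRNA abundant in endothelial cells. In RefSeq its mature 3p strand lies inside the Egfl7 gene, at chr2:26591402-26591423 on the plus strand, and it is shown because the host transcript is one of the members measured on both arrays. The capitals mark the seed, bases 2 to 8.
mmu-miR-126a-3p: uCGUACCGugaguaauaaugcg
The microRNA itself was not analysed here, and the Egfl7 probe says nothing of its level.

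Flt1 and Kdr encode the VEGF receptors VEGFR1, a high-affinity receptor that also exists in a soluble form, and VEGFR2, the main signalling receptor of endothelial cells. Flt1 (gene 14254, chromosome 5) had a signal of 35.2 ± 4.46 on the knockout array, against 25.4 ± 3.85 on the control array, at its brighter probe. The log2 difference of 0.25 ± 0.29 is smaller than its technical error, and its sign turned under normexp (-0.053). The other Flt1 probe was at 3.25 on the knockout array and 3.64 on the control array, both about equal to their errors, so the gene's value rests on 1 probe.

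Kdr (gene 16542, chromosome 5) was read by 1 probe printed 10 times. On the knockout array 9 spots in use had signals of 2.48 to 3.14 with a median of 2.72 (1 spot was left out as an outlier). On the control array the 10 spots had signals of 2.64 to 4.28 with a median of 3.13. None of these spots was well above background. Although the control spots were a little brighter, the ranges overlapped, and Kdr was not detectable in either sample, so no difference is given.

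Pecam1 (gene 18613, chromosome 11), which encodes the adhesion molecule CD31 found on endothelium, platelets and leukocytes, was also printed 10 times. Its 9 spots in use had signals of 2.43 to 3.94 on the knockout array (median 2.79). On the control array its 9 spots in use had signals of 2.64 to 6.32 (median 4.89). All of them lay below the lowest signal well above background. The scanner software marked 1 spot per array as an outlier, with signals of 29.1 on the knockout array and 13.6 on the control array, at different places on the arrays. Only the first of these was marked well above background, and the other 9 spots of the same probe do not share it.

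**Figure D2:**
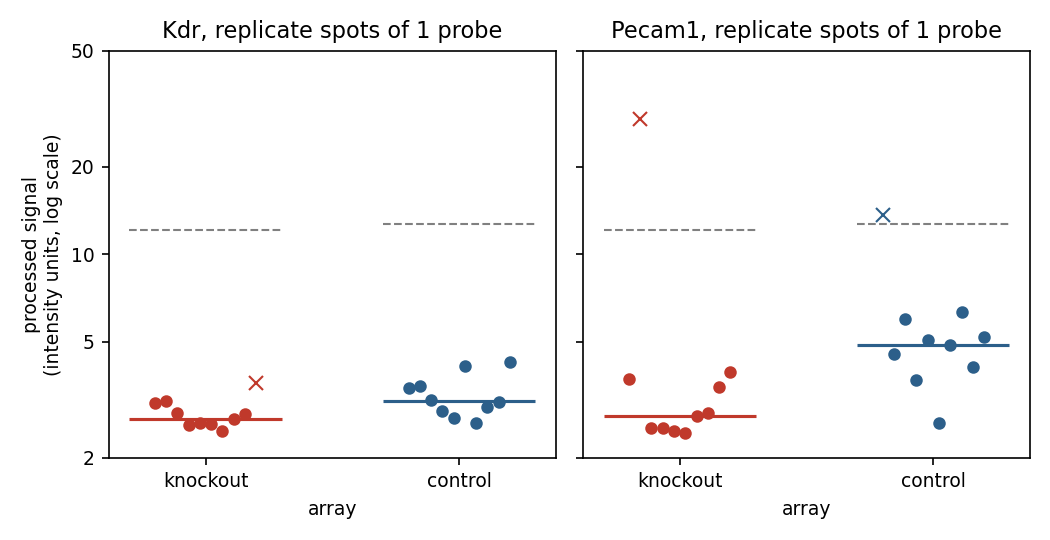
Processed signal (log axis) of the 10 replicate spots of the Kdr probe and of the Pecam1 probe, with knockout left of control. Crosses are spots left out as outliers, solid lines are medians of the spots in use, and dashed lines are the lowest signals well above background (12.1 and 12.7). Every spot in use lies below the dashed line of its array.

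Tek (gene 21687, chromosome 4) encodes TIE2, the angiopoietin receptor. Its probe had a signal of 19.2 ± 3.51 on the knockout array, against 4.60 ± 3.12 on the control array. It was well above background on the knockout array alone, but the bound is just 1.30-fold higher, since no signal under 12.7 was called on the control array. Named probes well above background on the knockout array with signals of 15 to 30 there numbered 2541. Of these, 24.4% were not well above background on the control array. Tie1 (gene 21846, chromosome 4), which encodes the partner of TIE2, had a signal of 2.70 ± 2.69 on the knockout array and 3.27 ± 2.88 on the control array, neither of them well above background.

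Cdh5 (gene 12562, chromosome 8) encodes VE-cadherin, the adhesive protein of endothelial adherens junctions. At its brighter probe it had a signal of 3.82 ± 3.80 on the knockout array, against 18.6 ± 4.69 on the control array. The control signal lay above the lowest signal called on that array but was not itself marked well above background. The other Cdh5 probe was at 3.88 on the knockout array and 4.20 on the control array. Esam (gene 69524, chromosome 9), a junction adhesion molecule shared by endothelium and platelets, had a signal of 16.2 ± 3.15 on the knockout array and 13.8 ± 3.21 on the control array. Only the knockout value was marked well above background, yet after scaling the levels were the same within error (log2 difference 0.0099 ± 0.44).

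Cd93 (gene 17064, chromosome 2) encodes a lectin-like receptor of endothelium and some myeloid cells. Its brighter probe had a signal of 5.57 ± 3.05 on the knockout array, against 17.3 ± 3.86 on the control array, which makes it at least 1.67-fold lower. Named probes well above background on the control array with signals of 13 to 26 there numbered 2147. Of these, 24.5% were not well above background on the knockout array. The other Cd93 probe was at 5.04 on the knockout array and 4.14 on the control array, both not well above background. Probes printed at least 8 times show how far replicate spots spread on the log2 scale. At mean signals of 20 to 80 the median SD of replicate spots was 0.14 on the knockout array (37 probes) and 0.17 on the control array (39 probes). At mean signals under 10 it was 0.38 and 0.43 on those arrays. There a signal can be about equal to its own error, as for Kdr on the knockout array. That spread therefore does not give the precision of a level.

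**Figure D3:**
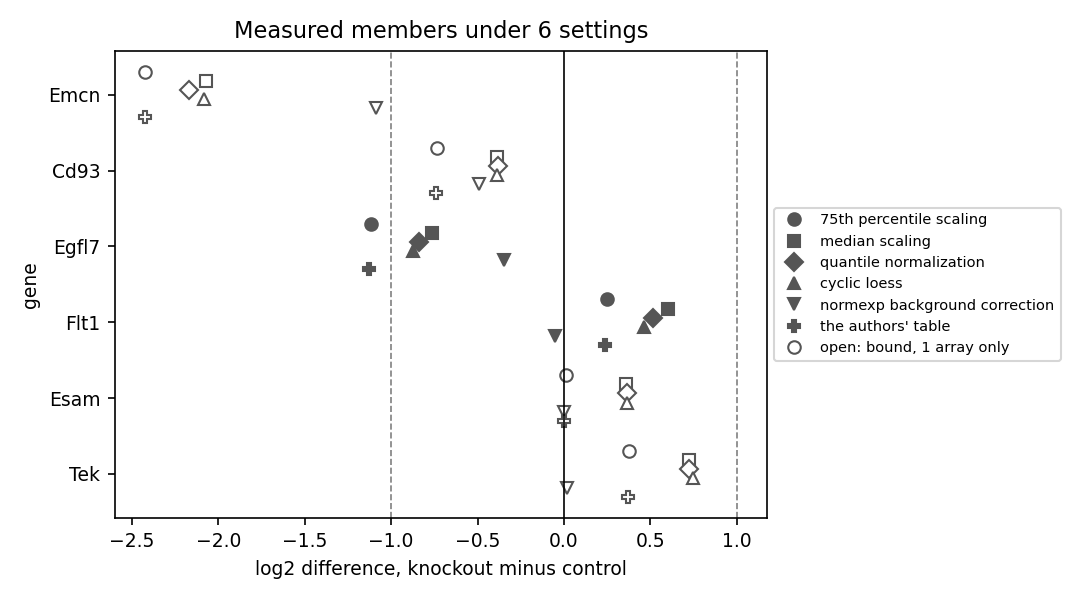
Log2 difference (knockout minus control) of the 6 members measured on at least 1 array, under 6 settings of scaling, background correction or source of values, with dashed lines at 2-fold. Open symbols are bounds for genes measured on 1 array alone. Emcn stays left of the 2-fold line under all 6 settings, from -1.09 under normexp to -2.43 in the authors' table, while Egfl7 passes it under 2 of them.

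Other endothelial genes gave a wider view. Of 35 genes in this list, 25 were measured on at least 1 array, 6 were lower by 2-fold or more in the knockout sample and 0 higher, beside the 5.38% and 3.5% of all named genes. Vwf, which encodes the clotting protein von Willebrand factor stored by endothelial cells, had a signal of 52 on the knockout array and 236 on the control array (log2 difference -2.40 ± 0.22, 5.29-fold lower). That Vwf probe lies near a non-uniform spot, and without it the gene's other probe, measured on the control array alone, gives a bound of -1.55 on the log2 scale. Plvap, which forms the diaphragms of fenestrated vessels, had signals of 23.4 on the knockout array and 60.5 on the control array (-1.59 ± 0.30).

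Ramp2, an accessory protein of the adrenomedullin receptor, had signals of 26.1 on the knockout array and 70.9 on the control array (-1.66 ± 0.26). Tm4sf1, a tetraspanin-like membrane protein that other epithelial and stromal cells also make, had signals of 266 on the knockout array and 584 on the control array (-1.36 ± 0.20). The water channel gene Aqp1, also active in red blood cells, had signals of 10.9 on the knockout array and 85 on the control array and was at least 8.19-fold lower. The protocadherin gene Pcdh12 had signals of 4.13 on the knockout array and 52.2 on the control array and was at least 5.03-fold lower, though its other probe was not well above background on either array. Under normexp Ramp2, Plvap and Pcdh12 fell short of 2-fold, at -0.82, -0.70 and -0.68, while Vwf was at -1.44 and the bound for Aqp1 was -1.26 on the log2 scale, both smaller but past 2-fold. The normexp offset of 50 shrinks differences between signals of this size by construction.

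Not all of the list was lower. Over its 21 genes measured on both arrays the differences ran from -2.40 to 0.87, with a median of -0.40 beside -0.040 for all genes. The gap depended on the normalization. The list median was -0.050 beside 0.033 for all genes under quantile normalization, and -0.094 beside 0.013 under cyclic loess. Median scaling, which shifts all genes alike, gave -0.048 beside 0.31. Endothelial transcription factors had 13 measured genes. Of these, 0 were lower by 2-fold or more and 1 was higher, beside 5.38% and 3.5% of all named genes. The higher gene was Hhex, with a signal of 47 on the knockout array and 6.23 on the control array (at least 3.17-fold higher). The other Hhex probe was not well above background on either array, and the bound was 0.33 on the log2 scale under normexp. Erg and Sox18, regulators of endothelial identity, were not well above background on either array, nor were Gata2 and Foxc2. The brightest genes of this list were Klf4 and Klf2. Klf4 had signals of 30100 on the knockout array and 24100 on the control array, and Klf2 had 9680 and 10700. These are far above the signals of the endothelial markers. Which cells made these transcripts was not tested, so the counts of this list are not a reading of endothelial cells alone. The lymphatic endothelium list had 3 of 6 genes measured, between -0.24 and -0.16.

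The VEGF, angiopoietin and apelin ligands held genes that were higher. Of 9 genes on the array, 7 were measured on at least 1 array, and 3 of these were higher by 2-fold or more in the knockout sample, with 0 lower, beside 3.5% higher and 5.38% lower among all named genes. Vegfa, the ligand of VEGFR1 and VEGFR2, had a signal of 726 on the knockout array and 191 on the control array at its brightest probe (log2 difference 1.71 ± 0.21, 3.26-fold). Its other probes were also higher, at 1.55, 1.88 and, measured on the knockout array alone, 1.34 by signal. Apln, the peptide ligand of the apelin receptor, had signals of 193 on the knockout array and 50.9 on the control array (1.70 ± 0.22), on 1 of 3 probes. Angpt2, the context-dependent TIE2 ligand, had signals of 62.6 on the knockout array and 19.2 on the control array and was at least 2.80-fold higher. Under normexp Apln was at 0.86 and Angpt2 at 0.29, short of 2-fold, and Vegfa at 1.31.

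The remaining measured ligands lay closer together. Vegfb and Vegfd differed by 0.16 ± 0.21 and 0.22 ± 0.20, and Pgf, which encodes placental growth factor, by -0.40 ± 0.22. Angpt4 had signals of 19.1 on the knockout array and 14.7 on the control array, of which only the first was marked well above background, and the scaled ratio was 1.11. Angpt1, the TIE2 agonist, and Vegfc were not well above background on either array.

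Co-receptors and modulators of the member receptors had 7 measured genes, of which 2 were lower by 2-fold or more in the knockout sample and 0 higher, beside 5.38% and 3.5% of all named genes. Nrp2, a neuropilin co-receptor, had signals of 55.4 on the knockout array and 151 on the control array (-1.67 ± 0.22). Ptprb, the vascular phosphatase that restrains TIE2, had signals of 4.96 on the knockout array and 27.2 on the control array and was at least 2.62-fold lower. Its other probe, at 2.56 on the knockout array and 4.02 on the control array, was not well above background on either. Under normexp Nrp2 and Ptprb were at -0.99 and -0.48. The catenin genes Ctnnb1, Ctnnd1 and Jup, whose products bind cadherins in many cell types, differed by -0.31, -0.22 and -0.17. Nrp1 and Flt4 were not well above background on either array.

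**Figure D4:**
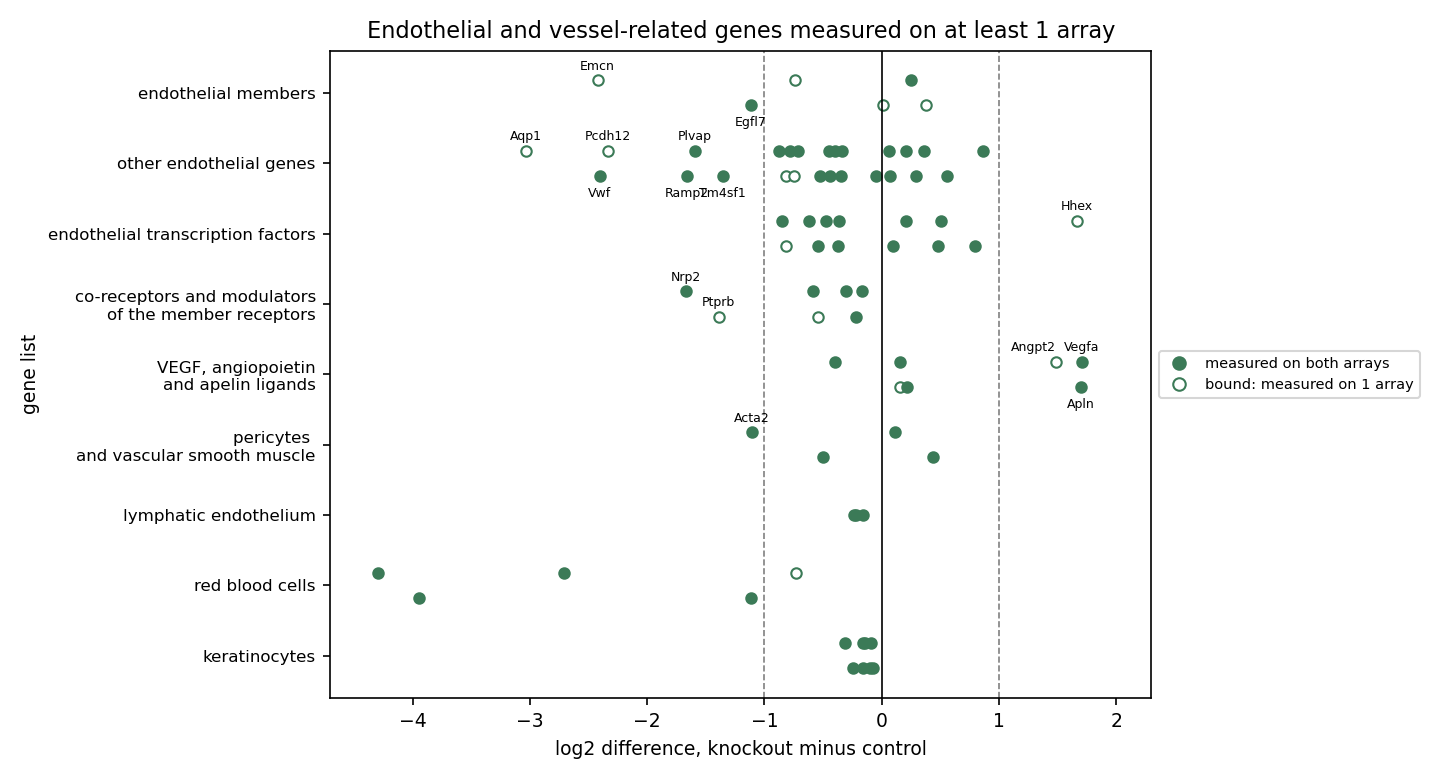
Log2 difference (knockout minus control) of every gene measured on at least 1 array in 9 lists, with dashed lines at 2-fold and names for vessel-related genes past it. Open points are bounds. The named genes of the other endothelial list lie to the left, such as Vwf at -2.40, with the transcription factor Hhex to the right, the ligands Vegfa and Apln to the right at 1.71 and 1.70, and keratinocyte genes close to 0.

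Markers of several other cell types also differed between the arrays, and others did not. Of all named genes measured on at least 1 array, 5.38% were lower and 3.5% higher by 2-fold or more. Among those measured on both arrays, 4.4% were lower by that much. The 4 red blood cell genes with a value from both samples were all lower by 2-fold or more, with a median of -3.32, and their list had a summed scaled signal of 8.98 on the knockout array and 89.6 on the control array. The erythroid gene Hbb-bt was 19.6-fold lower, and Slc4a1, the red cell anion exchanger, fell short of 2-fold with median scaling (-0.76) and normexp (-0.60). Of 8 measured skeletal muscle genes, 7 were lower by 2-fold or more, with a summed scaled signal of 1.93 on the knockout array and 7.55 on the control array, and of 4 measured melanocyte genes 3 were, with 2.02 and 8.56 on those arrays. Under normexp these counts were 5 for muscle and 2 for melanocytes.

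Pericyte and smooth muscle genes had 1 of 4 measured members lower, Acta2 (-1.11 ± 0.20), whose other measured probe was at 0.064. Acta2 was at -0.76 with median scaling and -0.92 under normexp. A further 8 genes, among 12 on the array, were not well above background on either array. Of 4 measured platelet genes, 0 were 2-fold apart. The counts of these lists stand beside 5.38% lower and 3.5% higher among all named genes measured on at least 1 array. Dermal fibroblast genes had 1 of 10 lower (Col5a1, -1.02 ± 0.24). Col5a1 was at -0.67 with median scaling, -0.85 under quantile normalization, -0.88 under cyclic loess and -0.57 under normexp. The fibroblast list had a median of -0.15 and a summed scaled signal of 30.8 on the knockout array and 24.6 on the control array. Its brightest gene, Vim, which many cell types make, had signals of 4190 on the knockout array and 1930 on the control array. Myeloid and leukocyte genes had 0 of 5 measured members past 2-fold, with a median of 0.48. The part of these other cell types in the endothelial values was not tested.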

How the data were processed

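The arrays, from 1 slide and 1 scan of a mouse design annotated on mm9, were read with Agilent Feature Extraction 10.7.3.1 per the file headers. The deposited intensity values are background-subtracted and detrended within each array, per the file headers, and not normalized between arrays. The authors' deposited table of log2 values is centred on each probe over the 2 arrays. Across probes its knockout minus control differences correlated with those from the scanner files at r = 1.00 and were offset by a median of 0.0086, so its scale and direction are settled and levels cannot be had from it. The medians of its knockout and control columns were -0.14 and 0.14.

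Outlier and control spots were dropped, repeated spots averaged, and log2 signals were taken relative to each array's 75th percentile over non-control spots. RefSeq accessions (GRCm38.p6, used for names) named 26690 of 41174 probes. Each gene is represented by its brightest probe over both arrays. No spot was saturated, and 56.3% and 56.2% of probes were well above background on the knockout and control arrays. Named genes were all 10 markers, Nfkbiz, and up to 6 genes at least 2-fold apart per list, and genes given beyond this rule were chosen after their values were seen. Members, lists and alternatives were chosen with earlier results of these data known. The signal windows set around single probes were chosen after their signals were seen. The code was tested on simulated data. Python 3.11.15, numpy 2.4.6, pandas 2.3.3, matplotlib 3.10.9, R 4.3.3 and limma 3.58.1 were used.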

Additional observations from a re-analysis of the deposited data

How the results depend on the processing

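No paired analysis was possible because only 1 array stands for either genotype. The count of 2 endothelial markers at least 2-fold lower became 1 (Emcn) under median scaling, quantile normalization, cyclic loess, normexp (offset 50) and a 3-fold threshold, was 3 at 1.5-fold, and was 4 with no filter on background. The count of 0 higher became 1 (Tek) when dim signals were taken at face value, with or without a filter on the brighter array. Egfl7 was -0.76 under median scaling, -0.84 under quantile normalization, -0.87 under loess and -0.35 under normexp. Flt1 ran from -0.053 under normexp to 0.60 under median scaling, so its direction is not settled. The bound for Emcn was smallest under normexp, at -1.09. The median of the 2 markers measured on both arrays lay between -0.44 and -0.083 under every scaling, background correction, probe choice and source of values tried. Normexp used median spot signals and left out non-uniform spots, a choice made after seeing the data. Its offset of 50 is of the size of many of these signals and shrinks their differences by construction. A dim gene that falls short of 2-fold under it is therefore not shown to differ less. Under normexp the lower counts were 3 among other endothelial genes (6 otherwise) and 0 among co-receptors (2 otherwise), and 1 ligand, Vegfa, was higher (3 otherwise). Pecam1, Cdh5, Kdr and Tie1 were not marked well above background on either array, so no difference can be read from them. The signals in use of Pecam1, Kdr and Tie1 all lay under the lowest called signals, while Cdh5 had 18.6 on the control array.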
